A study of Mus musculus with 6 samples.

Results

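The comparison described here sets lung fibroblasts recovered 4 days after transfer into an injured lung against those recovered 2 days after transfer. It covers every gene with a mean of at least 10 CPM (counts per 1000000 tags) over the Day 2 and Day 4 libraries, which was 4259 of the 24408 genes in the table, or 17.4%. The donor cells came from untreated Col-GFP mice on the C57BL/6 background, which carry a green fluorescent reporter of collagen expression, and were enriched by removing cells with lineage markers. They were placed in the airways of wild type hosts that had received bleomycin, a drug that injures the lung epithelium, 7 days earlier. GFP-positive cells were then sorted back out of the host lungs. Day 2 and Day 4 share the strain, the bleomycin treatment of the hosts and the sort, and differ in the time after transfer. The time since bleomycin differs along with it, so the stage of the host injury and the time after transfer cannot be told apart. Because cells were chosen by a collagen reporter, donor cells without reporter signal were not sampled. Levels in 4 more libraries are set beside them in places: the donor cells before transfer (Untreated), transferred cells at Day 7, and transferred cells of Col-GFP/Acta2-mKO1 donors sorted by low or high Acta2 reporter signal.

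A fibroblast in an injured tissue passes through several states. Early after injury it can act as an alarm cell: danger signals and cytokines release NF-kB, a transcription factor held in the cytoplasm by inhibitors, and NF-kB drives chemokines that call in neutrophils and monocytes. Later, TGF-beta and tension on the cell favour the myofibroblast state, in which the cell secretes collagen and wound glycoproteins, cross-links them and contracts through smooth muscle actin. Both states are known from bleomycin-injured lung, a standard mouse model of pulmonary fibrosis.

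With 1 library in each group there is no replicate check on any difference, no p-value is given, and the intervals cover counting error only. The Day 2 library held 6175334 tags and 13448 detected genes, and the Day 4 library 4448065 tags and 12752 genes. At these depths 10 CPM is 61.8 tags at Day 2 and 44.5 at Day 4. The 10 most abundant genes took 24.0% of the Day 2 tags and 33.3% of the Day 4 tags, and the median gene past the filter was 0.348 log2 lower at Day 4, a CPM ratio of 0.785. Differences are therefore given relative to that median gene, on the scale of log2(CPM + 1). Folds of single genes are ratios of CPM divided by 0.785, with an exact 95% counting interval. Pooled sorted cells were measured, so fewer cells of one kind and less RNA per cell cannot be told apart.

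Relative to the median gene, 5 of 6 measured fibrillar collagens, 7 of 18 wound glycoproteins, 5 of 11 elastic fibre genes and 7 of 24 contractile genes exceeded their Day 2 level by 2-fold or more at Day 4, and none of these lists had a gene 2-fold lower. On the lower side by at least 2-fold were 3 of 8 CXC chemokines, 7 of 18 acute-phase and inflammatory effectors and 5 of 17 nucleolar genes, with none 2-fold higher. The 7 effectors include Sod2, whose value is uncertain. A gene below 10 CPM in 1 library passes the filter only through the other. Fmod, Postn and Grem1 are among the called genes that passed through Day 4, and Cxcl5, Il11 and Irf9 among those that passed through Day 2. List counts and medians therefore belong to the measured members and not to all members. In all, 215 of the 4259 genes were 2-fold or more above their Day 2 level (5.05%) and 113 were 2-fold or more below it (2.65%). At 4-fold, 21 genes were higher (0.493%) and 5 lower (0.117%). Within 2-fold of the median gene lay 3931 genes, or 92.3%. These counts depend on the centring: on the deposited CPM as they stand, 91 genes passed 2-fold on the higher side and 418 on the lower, so that the share of higher genes among the called went from 65.5% to 17.9%. With any gene that had a tag included, and the median taken over those genes, 517 were higher and 451 lower, a share of 53.4%. The 215 higher genes took 8.99% of the tags at Day 2 and 24.0% at Day 4. Their share was 11.6% in Untreated, 39.7% at Day 7, and 23.6% and 32.9% in the Acta2 low and Acta2 high sorts. The 113 lower genes took 3.17% of the tags at Day 2 and 1.03% at Day 4, after 24.4% in Untreated. Gsn, gelsolin, alone took 17.4% of the Untreated tags. Without it the other 112 took 6.99% in Untreated, 2.94% at Day 2 and 0.941% at Day 4, a share chosen after the values were seen.

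**Figure D1:**
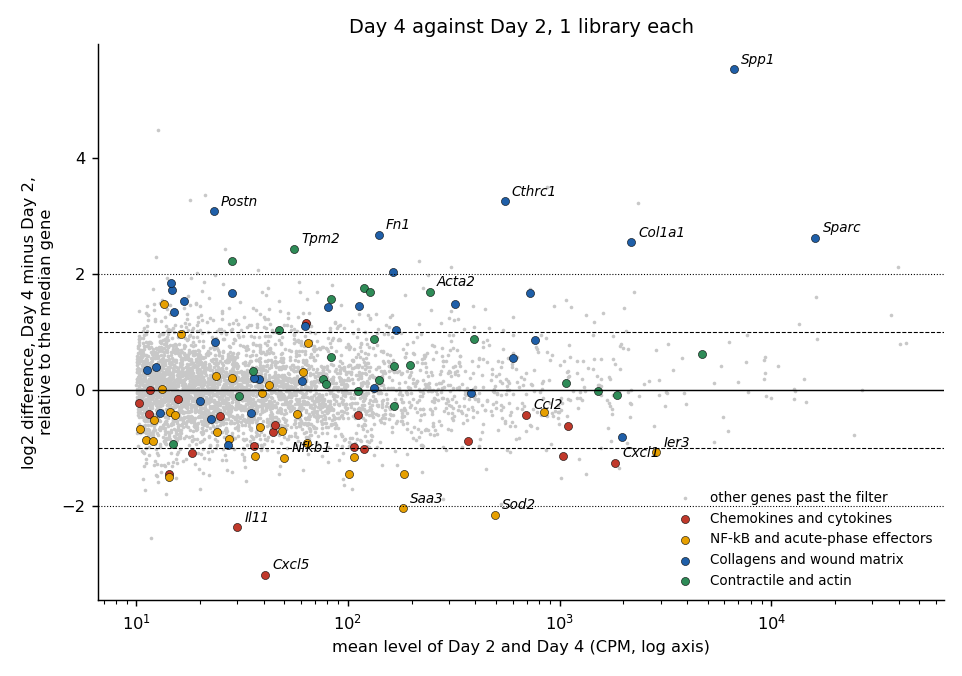
Each point is 1 of 4259 genes; the x axis is the mean CPM of Day 2 and Day 4 on a log axis and the y axis the log2 difference, Day 4 minus Day 2, relative to the median gene. Dashed lines mark 2-fold and dotted lines 4-fold. Collagen and wound matrix genes such as Spp1, Cthrc1 and Sparc lie above the upper lines, and cytokine and acute-phase genes such as Cxcl5, Il11 and Saa3 lie below the lower ones.

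Among genes with a mean of at least 50 CPM, leaving out predicted symbols and genes with a widely shared tag, the 12 furthest above the median gene held 7 matrix genes. Spp1 (osteopontin, a secreted glycoprotein of injured tissue) stood at 357 CPM at Day 2 and 12975 at Day 4, a 46.2-fold difference (44.3 to 48.3); it was at 7.49 in Untreated and 72790 at Day 7, and the Acta2 low and Acta2 high sorts had 51706 and 19670. Cthrc1, a secreted protein of matrix-producing fibroblasts, went with it at 129 and 970 CPM, and Fn1, Sparc, Col1a1, Eln and Col1a2 were 4.14 to 6.52-fold higher. The rest were S100a4, a calcium-binding protein, and Crip1, a LIM domain protein, at 11.3-fold and 9.38-fold, Tpm2 at 5.59-fold, the secreted protease gene Prss23 at 4.68-fold and Tmsb4x, an actin-sequestering peptide, at 4.35-fold. Spp1 was the only gene of the 12 past 12-fold.

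The 12 furthest below the median gene were of other kinds. Saa3, an acute-phase protein, stood at 305 CPM at Day 2 and 57.6 at Day 4, 4.16-fold lower (3.65 to 4.76). Odc1, which makes the first polyamine, was 3.91-fold lower, Pdpn, a membrane glycoprotein of activated stromal cells, 3.72-fold, and the small GTPase Ran 2.73-fold. The nucleolar proteins Nop56 and Nop58 and the ribosome assembly factor Grwd1 were 2.94 to 3.34-fold lower. Ptges, a prostaglandin E synthase, Has1, a hyaluronan synthase, Ppap2b, a lipid phosphatase, Angptl4 and Mrps18a complete the 12, between 2.59 and 2.88-fold.

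Genes of low abundance complete the set past 4-fold, and those outside the lists are named here after their values were seen. C1qtnf3, a secreted protein with a collagen-like stretch, had 3 tags at Day 2 and 111 at Day 4 (0.486 and 24.96 CPM), a ratio of 65.4 (21.8 to 322), and stood at 268 CPM at Day 7. Its relative C1qtnf6 stood at 8.74 and 30.1 CPM, and Pdgfrl, a PDGF receptor-like protein, at 9.39 and 42.9 CPM. Basp1, a membrane protein, stood at 17.0 and 58.5 CPM, and Rab11fip1, a recycling endosome protein, at 4.53 and 20.2 CPM. With Postn, Fmod, Grem1 and Actg2, described with their lists, these bring the higher genes to 21. The 5 lower ones were Cxcl5, Il11, Saa3, Sod2, whose value is uncertain, and the predicted gene Gm129, at 21.5 and 2.02 CPM. C1qtnf3, C1qtnf6, Pdgfrl and Rab11fip1 passed the filter only through Day 4, and Gm129 only through Day 2.

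What the libraries count are short tags near the 3′ end of each transcript. The tags below are those predicted for the genes that carry the comparison, from the last CATG of the matching GENCODE M21 transcript, with the CATG in capitals; that this site anchors the tags is an assumption, since the enzyme is not given in the sources used here. They run 5′ to 3′ on the transcript strand.
Spp1: CATGcaaacaccgttgtaacc
Cthrc1: CATGctgtcagcgctggtatt
Sparc: CATGcaaactctcacagcaat
S100a4: CATGtgcacagtgctgagcaa
Cxcl1: CATGtgtgggaggctgtgttt
Cxcl5: CATGtttgaatatggattgct
Il11: CATGactgtattttgcaggac
Saa3: CATGctgccccccgagaagag
Sod2: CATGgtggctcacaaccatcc
Luc7l2: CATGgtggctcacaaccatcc
The first 14 bases of the Spp1, Cthrc1, Sparc, S100a4, Cxcl5, Il11 and Saa3 tags occurred as the last tag of no other gene, and those of Cxcl1 in 1 other. Sod2 and Luc7l2 have the same predicted tag, whose 14 bases are shared with 331 other genes. Their values nevertheless went in opposite directions: Sod2, a mitochondrial superoxide dismutase that NF-kB induces, stood at 842 CPM at Day 2 and 148 at Day 4, and Luc7l2, among the 4 most abundant genes in both libraries, at 34477 and 47061. How tags were assigned to either gene is not given in the sources used here, so the values of both are uncertain.

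The neutrophil and monocyte chemokines were lower at Day 4, each by its own amount. Of 16 CXC and CX3C chemokines in the table, 8 passed the filter, and all 8 lay below the median gene, 3 of them at least 2-fold lower and 0 higher, against 2.65% and 5.05% of all genes; their median was -0.80. Cxcl5, a neutrophil attractant, stood at 75.6 CPM at Day 2 and 5.62 at Day 4, 10.6-fold lower (7.07 to 16.5), and no gene of the list was further from the median. It had no tag in Untreated and stood at 1.71 CPM at Day 7. Cxcl1, the most abundant member, stood at 2747 and 903 CPM, 2.39-fold lower (2.31 to 2.47). Cxcl3 was 2.03-fold lower (1.78 to 2.32), at 173 and 66.8 CPM.

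Their neighbour Cxcl2 stood at 141 CPM at Day 2 and 82.1 at Day 4, a difference of -0.43 that did not reach 2-fold. Nor did Cxcl14 (520 and 221 CPM), which is made by resting fibroblasts, Cxcl12 (60.6 and 28.3), Cxcl16 or Cxcl10. Summed over the list the level was 3804 CPM at Day 2 and 1360 at Day 4, 2.20-fold lower relative to the median gene, and 1.82-fold lower without Cxcl1. The other 8 members were below 10 CPM.

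Of 17 CC chemokines in the table, 4 passed the filter, all below the median gene, with a median of -0.52. Only Ccl11, an eosinophil attractant, reached 2-fold, at 27.2 CPM at Day 2 and 9.44 at Day 4. The monocyte attractants Ccl2 and Ccl7 were still abundant at Day 4. Ccl2 stood at 877 and 513 CPM, 1.34-fold lower (1.28 to 1.41), and at 91.2 CPM at Day 7. Ccl7 stood at 1443 and 739 CPM, 1.53-fold lower (1.47 to 1.60), and at 124 CPM at Day 7. The neutrophil attractants Cxcl5, Cxcl1 and Cxcl3 were thus further down at Day 4 than these monocyte attractants, while Cxcl2, at 1.35-fold lower (1.19 to 1.53), was close to Ccl2.

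Several of these genes carry a match to the kB motif, the letters that NF-kB subunits bind, close to the transcription start. The motif was searched as GGANNTTCC on both strands, which reads GGAANNTCC on the other strand, in the 250 bases upstream of each start in the RefSeq promoter table (GRCm38.p6); the matches below are in capitals, each with the flanking bases, 5′ to 3′ toward the gene.
Cxcl1, chr5:90891155-90891203, plus strand: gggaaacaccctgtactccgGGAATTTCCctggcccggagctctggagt
Cxcl2, chr5:90903783-90903831, plus strand: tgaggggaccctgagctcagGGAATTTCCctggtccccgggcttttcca
Cxcl3, chr5:90786009-90786057, plus strand: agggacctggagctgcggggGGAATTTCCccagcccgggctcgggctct
Il6, chr5:30013051-30013099, plus strand: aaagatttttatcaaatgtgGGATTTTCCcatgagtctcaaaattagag
Ier3, chr17:35821554-35821602, plus strand: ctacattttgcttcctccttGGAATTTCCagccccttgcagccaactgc
The first base of the match lies 70 bases before the start of Cxcl1, 96 before that of Cxcl2, 72 before that of Cxcl3, 43 before that of Il6 and 139 before that of Ier3, which gives Cxcl1, Cxcl2 and Cxcl3 the same 9 letters at close to the same place. A match was present for 4 of the 6 CXC chemokines with a window. It was present in 4.12% of 27025 genes with a window and in 5.11% of 3034 genes past the filter. Among genes at least 2-fold lower it was present in 7 of 75 (9.33%), and among those at least 2-fold higher in 2 of 141 (1.42%). A share like that of the lower genes was also found in cytoplasmic ribosomal protein genes, all within 2-fold, at 4 of 45 (8.89%). The AP-1 motif, also searched, was present in 9.33% of the lower genes, 7.80% of the higher and 5.54% of those past the filter. Cxcl2 and Cxcl3, with the same letters, differed by -0.43 and -1.01. Cxcl5 had no window. Whether chemokines with and without a match differ in their change was not tested. A match is a run of letters, and no binding was measured.

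Of 27 interleukins, IL-6 family members, growth factors and colony factors in the table, 9 passed the filter, 3 at least 2-fold lower and 1 higher. Their median was -0.97, the lowest of the 34 lists at this filter. With no filter on low values the median was -0.16 over 24 genes, against -0.85 for the acute-phase and inflammatory effectors. The rank of this list therefore depends on the filter, which Il11 and Csf3 passed only through Day 2. Il11, an IL-6 family cytokine that acts on fibroblasts, stood at 52.6 CPM at Day 2 and 7.19 at Day 4, 5.75-fold lower (3.99 to 8.54). Csf3, the granulocyte colony factor, stood at 22.7 and 5.85 CPM. Mif, an inflammatory mediator present in most cells, stood at 1531 and 548 CPM, 2.20-fold lower (2.10 to 2.30). Il6 itself lay just short of 2-fold, at 154 and 60.7 CPM (difference -0.98), and Csf1, the macrophage growth factor, at 52.0 and 20.2 CPM (-0.97).

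In the opposite direction went Hbegf, an EGF receptor ligand, at 46.2 CPM at Day 2 and 81.2 at Day 4, 2.24-fold higher (1.91 to 2.62). The upstream cytokines Il1b and Tnf stood at or near 0: Il1b is listed at 0 in both libraries, and Tnf stood at 0.162 and 0.225 CPM. The 11 measured cytokine and chemokine receptors, of 29 in the table, were all within 2-fold, with a median of -0.27.

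NF-kB itself is built from subunits that the pathway also induces. Of 26 subunits and feedback genes in the table, 13 passed the filter, with a median of -0.38. Nfkb1, which encodes the p105 precursor of p50, stood at 74.3 CPM at Day 2 and 25.4 at Day 4, 2.30-fold lower (1.87 to 2.85), and Relb, a partner of Nfkb2, at 53.9 and 18.7 CPM. Rela, the p65 subunit, was close to the median gene at 46.5 and 38.4 CPM (0.08). The inhibitor Nfkbia was the most abundant member at both times, with 1055 and 637 CPM (-0.38). Map3k8, a kinase of the pathway, was 2.97-fold higher (2.07 to 4.30) at 8.10 and 18.9 CPM, and passed the filter only through Day 4. Birc3, a further list member, was below the filter at 16.0 and 3.82 CPM. The subunits Nfkb1, Relb and Rela did not move as a block.

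Of 30 acute-phase and inflammatory effectors in the table, 18 passed the filter; 7 were at least 2-fold lower and 0 higher, and the median was -0.78. Beside Saa3 and Sod2, the latter with an uncertain value, these were Slc39a14, a zinc and iron importer of the acute phase, Ptges, Has1, Tnfaip6, a hyaluronan-binding protein, and Ier3, an early survival gene. Ier3 was the most abundant of them, at 4178 CPM at Day 2 and 1558 at Day 4, 2.11-fold lower (2.05 to 2.16). Ptgs2, the inducible cyclooxygenase, stood at 72.1 and 42.3 CPM (-0.41), while Hp, haptoglobin, had more tags at Day 4 (54.4 and 75.1 CPM; 0.81) and 240 CPM at Day 7. Without Ier3 the summed level of the list was 2.35-fold lower at Day 4.

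**Figure D2:**
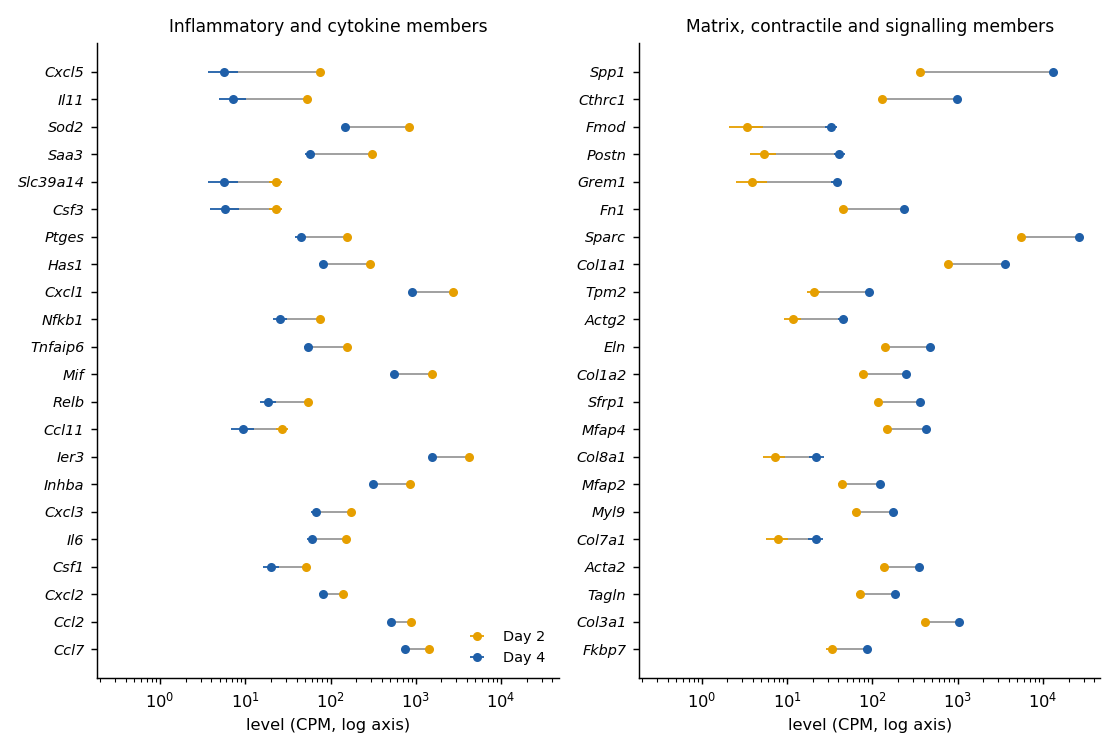
Levels in CPM on a log axis at Day 2 and Day 4 for chosen list members, 1 library per point. On the left are members lower at Day 4, mostly inflammatory, from Cxcl5 (75.6 and 5.62) to Ccl7 (1443 and 739). On the right are members of the matrix, contractile and signalling lists that were higher at Day 4. Other members of the same lists went the other way and are not shown, among them Hbegf, Hp, Dcn and Emilin1. Horizontal bars through the points are exact 95% Poisson intervals of the tag count.

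Of 35 interferon response and antigen presentation genes in the table, 16 passed, 4 of them at least 2-fold lower and 0 higher, with a median of -0.54. Irf9, the DNA-binding subunit of the interferon-induced factor ISGF3, stood at 23.2 CPM at Day 2 and 4.50 at Day 4, 4.05-fold lower (2.52 to 6.82), and Ifit3, an antiviral target, at 32.9 and 7.19 CPM. The guanosine triphosphatase Igtp and the tetherin gene Bst2 were the other members past 2-fold. Ifitm1 was the most abundant, at 17411 and 11820 CPM (-0.21). The 4 measured complement genes of 15 in the table were all below the median gene and within 2-fold, with a median of -0.50.

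Other early lists had medians close to that of all genes. Of 15 STAT3 and SOCS feedback genes in the table, 8 passed and 1, Socs5, was at least 2-fold lower (17.2 and 4.95 CPM), with a list median of -0.06; Stat3 stood at 85.7 and 58.7 CPM (-0.19). Of 26 immediate early genes 24 passed and 1, Egr1, was at least 2-fold lower, at 813 and 313 CPM, with a median of 0.03. Fos, the most abundant of them, stood at 2712 and 2277 CPM (0.10). Among 11 measured metallothionein and oxidative stress genes of 17, Sod3, the extracellular superoxide dismutase, stood at 2925 and 901 CPM, 2.55-fold lower, and the list median was -0.08. Mt2, the most abundant member at Day 2, stood at 8447 and 4063 CPM (-0.71) and at 209 CPM at Day 7.

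Ribosome assembly takes place in the nucleolus and is driven by Myc. Of 27 nucleolar and Myc genes in the table, 17 passed, 5 at least 2-fold lower and 0 higher, and 16 of the 17 lay below the median gene, with a median of -0.67. Nop56, a core protein of the box C/D particles that methylate ribosomal RNA, stood at 170 CPM at Day 2 and 40.0 at Day 4, 3.34-fold lower (2.84 to 3.93), and its partner Nop58 at 150 and 40.0 CPM. The helicase gene Ddx21, Rrp9 and Nolc1 were the other members past 2-fold. Myc stood at 158 and 77.3 CPM, 1.60-fold lower (1.42 to 1.82).

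Transcripts of the ribosomal proteins themselves lay closer to the median gene. All 63 measured cytoplasmic ribosomal protein genes, of 68 in the table, were within 2-fold, with a median of -0.14 and a range from -0.67 to 0.54. Of 8 polyamine genes in the table, 4 passed; Odc1, a Myc target, stood at 884 CPM at Day 2 and 178 at Day 4 while the list median was 0.24. Amino acid synthesis and tRNA charging genes (18 of 28 measured) had none past 2-fold and a median of -0.27. Of 25 glycolysis and hypoxia genes 14 passed, 1 of them, Vegfa, at least 2-fold lower (33.5 and 12.1 CPM), with a median of -0.20. Ldha, the most abundant of these, stood at 1261 and 713 CPM (-0.47). The 57 measured oxidative phosphorylation genes, of 60, were all within 2-fold, with a median of 0.05.

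Collagens gave the highest list medians at this filter. Of 11 fibrillar collagens in the table, 6 passed the filter, 5 at least 2-fold higher and 0 lower, with a median of 1.55. Col1a1, the major chain of type I collagen, stood at 776 CPM at Day 2 and 3560 at Day 4, 5.84-fold higher (5.65 to 6.03), after 310 in Untreated and with 7988 at Day 7. Its partner Col1a2 stood at 76.8 and 249 CPM, 4.14-fold higher (3.71 to 4.61), and Col3a1, the chain of type III collagen, at 413 and 1037 CPM, 3.19-fold higher (3.04 to 3.35). The minor fibril collagens Col5a1 and Col5a2 were at least 2-fold higher, and Col5a3 (19.6 and 27.7 CPM) was not. Summed over the list, the level was 4.65-fold higher at Day 4, and 3.14-fold without Col1a1. The sort was on a collagen reporter, whose part in these values was not tested.

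Of 21 other collagens 10 passed, 6 at least 2-fold higher and 0 lower, with a median of 1.46. Those past 2-fold were the beaded-filament chains Col6a1 and Col6a2 (201 and 442 CPM for Col6a2), Col7a1, Col8a1, Col15a1 and Col16a1. Col8a1, a short-chain collagen, stood at 7.13 and 22.0 CPM, 3.94-fold higher (2.73 to 5.75). The basement membrane chains Col4a1 (40.0 and 35.7 CPM; 0.19) and Col4a2 (0.21) did not reach 2-fold. A gene near 0 at Day 2 passes the filter only where it is high at Day 4, so these counts belong to the measured members and not to all members. Col7a1, Col8a1 and Col16a1 were below 10 CPM at Day 2 and passed only through Day 4. With no filter on low values the median of this list was 0.46 over 18 genes, against 0.80 for the elastic fibre genes. The rank of this list therefore depends on the filter.

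The machinery that shapes collagen was less far apart than collagen. Of 31 modification, folding and cross-linking genes 25 passed, 6 at least 2-fold higher and 0 lower, with 24 of the 25 above the median gene and a median of 0.60. Sparc, a collagen-binding glycoprotein listed here and with the wound glycoproteins, stood at 5523 CPM at Day 2 and 26806 at Day 4, 6.18-fold higher (6.11 to 6.25). Serpinh1, the collagen chaperone Hsp47, stood at 1596 and 2531 CPM, 2.02-fold higher (1.97 to 2.07). Fkbp7, a prolyl isomerase of the endoplasmic reticulum, Loxl2 and Loxl3, which cross-link collagen, and Bmp1, which trims procollagen, were the others past 2-fold. Lox (55.5 and 78.5 CPM; 0.84) and P4hb (586 and 606 CPM; 0.40) were not. The general secretory pathway showed no such difference: all 29 measured genes of 33 were within 2-fold, with a median of -0.01, and Hspa5, the chaperone BiP, stood at 1220 and 740 CPM (-0.37).

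Wound glycoproteins split. Of 27 in the table, 18 passed, 7 at least 2-fold higher and 0 lower, with a median of only 0.35, although 5 were past 4-fold: Spp1, Cthrc1, Postn, Fn1 and Sparc. Postn, periostin, stood at 5.34 CPM at Day 2 and 41.1 at Day 4, 9.80-fold higher (6.74 to 14.7), and had no tag in Untreated. Fn1, fibronectin, stood at 45.7 and 234 CPM, 6.52-fold higher (5.71 to 7.46). Fbln2 and Thbs3 were the other members past 2-fold.

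Tnc, tenascin C, was already at 147 CPM at Day 2 and stood at 119 at Day 4 (0.04), after 2.74 in Untreated. The CCN genes differed among themselves. Ctgf stood at 631 and 904 CPM (0.87), Cyr61 at 2738 and 1226 (-0.81) and Wisp1 at 65.1 and 56.7 (0.15). Thbs1, which activates latent TGF-beta, stood at 43.7 and 25.6 CPM (-0.40).

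Fmod, fibromodulin, led the small leucine-rich proteoglycans, which bind collagen fibrils, at 3.40 CPM at Day 2 and 32.6 at Day 4, 12.2-fold higher (7.69 to 20.3). Of 12 in the table, 6 passed, 2 of them, Fmod and Bgn (biglycan, 111 and 213 CPM), at least 2-fold higher, with a median of 0.64. Dcn, decorin, was by far the most abundant and went the other way, at 2443 and 1039 CPM (-0.88), so that the summed level of the list was 1.50-fold lower at Day 4 and, without Dcn, 2.18-fold higher. Dcn stood at 7723 CPM at Day 7. Of 14 elastic fibre genes 11 passed, 5 at least 2-fold higher and 0 lower, with a median of 0.70. Eln, elastin, stood at 139 and 475 CPM, 4.36-fold higher (4.02 to 4.72), and the microfibril genes Mfap4 (148 and 422 CPM), Mfap2, Mfap5 and Ltbp3 were the others. Emilin1 stood at 333 and 170 CPM (-0.61).

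Of 31 metalloproteases and inhibitors 12 passed, 5 at least 2-fold higher and 1 lower, with a median of 0.81. Mmp14, a membrane collagenase, stood at 296 CPM at Day 2 and 491 at Day 4, and Mmp2, a gelatinase that Mmp14 activates, at 67.2 and 116 CPM. Mmp10, Mmp23 and the inhibitor gene Timp3 were also past 2-fold. Mmp3, stromelysin, a target of inflammatory cytokines, stood at 420 and 161 CPM, 2.05-fold lower (1.89 to 2.23), and at 40.1 CPM at Day 7. Timp1 was among the abundant transcripts at both times, at 8712 and 9777 CPM (0.51).

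**Figure D3:**
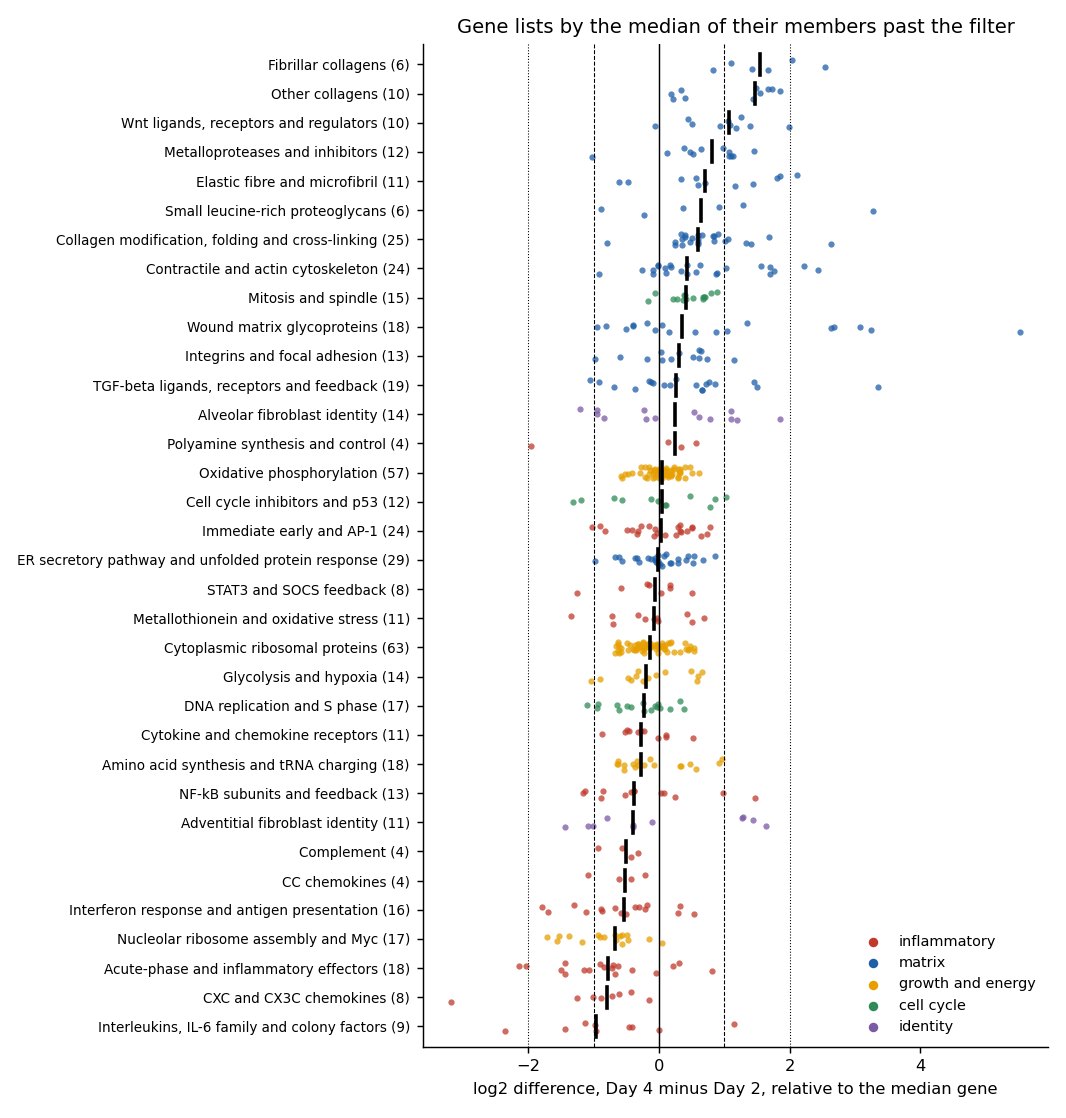
Each dot is a gene past the filter, placed by its log2 difference, Day 4 minus Day 2, relative to the median gene; thick bars are list medians, lists are ordered by them, and the number measured is in brackets. Medians run from -0.97 for the interleukin, IL-6 family and colony factor list to 1.55 for the fibrillar collagens, and the ribosomal protein and oxidative phosphorylation genes lie between the 2-fold lines.

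Myofibroblasts contract through smooth muscle actin and its partners. Of 32 contractile and actin genes in the table, 24 passed, 7 at least 2-fold higher and 0 lower, with a median of 0.43. Acta2, smooth muscle actin, stood at 137 CPM at Day 2 and 350.5 at Day 4, 3.26-fold higher (2.99 to 3.55), after 8.77 in Untreated, and at 132 at Day 7. Tpm2, a tropomyosin, stood at 20.7 and 91.1 CPM, and at 20.5 at Day 7. Actg2, a further smooth muscle actin, stood at 11.7 and 45.2 CPM, 4.93-fold higher (3.75 to 6.55). Myl9, a myosin light chain, Tagln, Csrp2 and Des, desmin, were the others past 2-fold.

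The actin genes that every cell uses did not go with them. Actb stood at 2154 and 1594 CPM (-0.09), Tagln2 at 1708 and 1330 (-0.01) and Myh9 at 86.1 and 72.2 (0.10). Srf, the factor that binds the CArG motif of contractile genes, stood at 21.5 and 8.32 CPM (-0.93). The CArG motif, searched on both strands, was found upstream of 3 of the 20 contractile genes with a window, against 1.62% of all genes with one, and Myl9 and Srf itself are shown with their matches in capitals.
Myl9, chr2:156775283-156775332, plus strand: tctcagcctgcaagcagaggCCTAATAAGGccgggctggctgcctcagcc
Srf, chr17:46556215-46556264, minus strand: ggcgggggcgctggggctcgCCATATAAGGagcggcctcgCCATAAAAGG
The match begins 161 bases before the start of Myl9, and the 2 matches of Srf begin 82 and 62 bases before its start. The 2 genes went in opposite directions, Myl9 from 64.5 to 173 CPM (1.76) and Srf with the value above.

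Most measured genes of the TGF-beta list were within 2-fold. Of 30 TGF-beta ligands, receptors and feedback genes 19 passed, 3 at least 2-fold higher and 1 lower, with a median of 0.26. Grem1, gremlin, a secreted BMP inhibitor, stood at 3.89 CPM at Day 2 and 38.2 at Day 4, 12.5-fold higher (8.14 to 20.1). Tgfb3 stood at 7.61 and 18.2 CPM and Fstl1, an extracellular follistatin-like protein, at 246 and 530 CPM. Grem1 and Tgfb3 passed the filter only through their Day 4 level. Inhba, the activin A subunit, stood at 846 and 318 CPM, 2.09-fold lower (1.97 to 2.22), after 2.92 in Untreated. Tgfb1 (9.39 and 11.9 CPM; 0.66) and Tgfbr2 (34.0 and 31.9 CPM; 0.26) did not reach 2-fold, and Tgfbr1, at 2.27 and 1.80 CPM, was below the filter. Feedback genes that TGF-beta induces, Smad7 (-0.37), Skil (-0.92) and Pmepa1 (-0.69), were lower than the median gene without reaching 2-fold.

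Of 38 Wnt pathway genes in the table, 10 passed, 6 at least 2-fold higher and 0 lower, with a median of 1.07. Sfrp1, a secreted Wnt inhibitor, stood at 115 CPM at Day 2 and 361 at Day 4, 3.98-fold higher (3.65 to 4.36). Nkd1 and Nkd2, which dampen the pathway inside the cell, Dkk3, the receptor Fzd2 and Wls, which carries Wnt proteins to the surface, were the other members. Of 28 integrin and focal adhesion genes 13 passed and 1, Itgb5, was at least 2-fold higher (31.1 and 54.6 CPM), with a median of 0.31. Sdc4, a heparan sulphate receptor, stood at 493 and 197 CPM (-0.97), and Itgb1 at 85.0 and 111 CPM (0.73).

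Cell cycle transcripts were measured at both times, and the replication and mitosis lists had medians of opposite sign. Of 29 DNA replication genes 17 passed, with 1 at least 2-fold lower and a median of -0.24. Mcm2, a subunit of the replicative helicase, stood at 95.4 CPM at Day 2 and 34.4 at Day 4, 2.18-fold lower (1.82 to 2.62), and Mcm5 (81.3 and 32.4 CPM; -0.95) and Pcna (49.7 and 19.8 CPM; -0.94) lay just short of 2-fold. Of 32 mitosis genes 15 passed, none past 2-fold, with a median of 0.42 and 13 of 15 above the median gene. Cdk1 stood at 51.8 and 65.4 CPM (0.68) and Cenpa, which marks the centromere, at 65.4 and 96.0 CPM (0.89).

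The arrest genes were divided. Of 20 cycle inhibitor and p53 genes 12 passed, 1 at least 2-fold higher and 2 lower, with a median of 0.04. Trp53 stood at 72.7 CPM at Day 2 and 22.3 at Day 4, 2.57-fold lower (2.06 to 3.22), and its target Cdkn1a, the p21 inhibitor, at 1846 and 632 CPM, 2.30-fold lower (2.20 to 2.39). Bbc3, a further p53 target that promotes apoptosis, stood at 13.8 and 22.7 CPM, 2.10-fold higher (1.56 to 2.84).

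**Figure D4:**
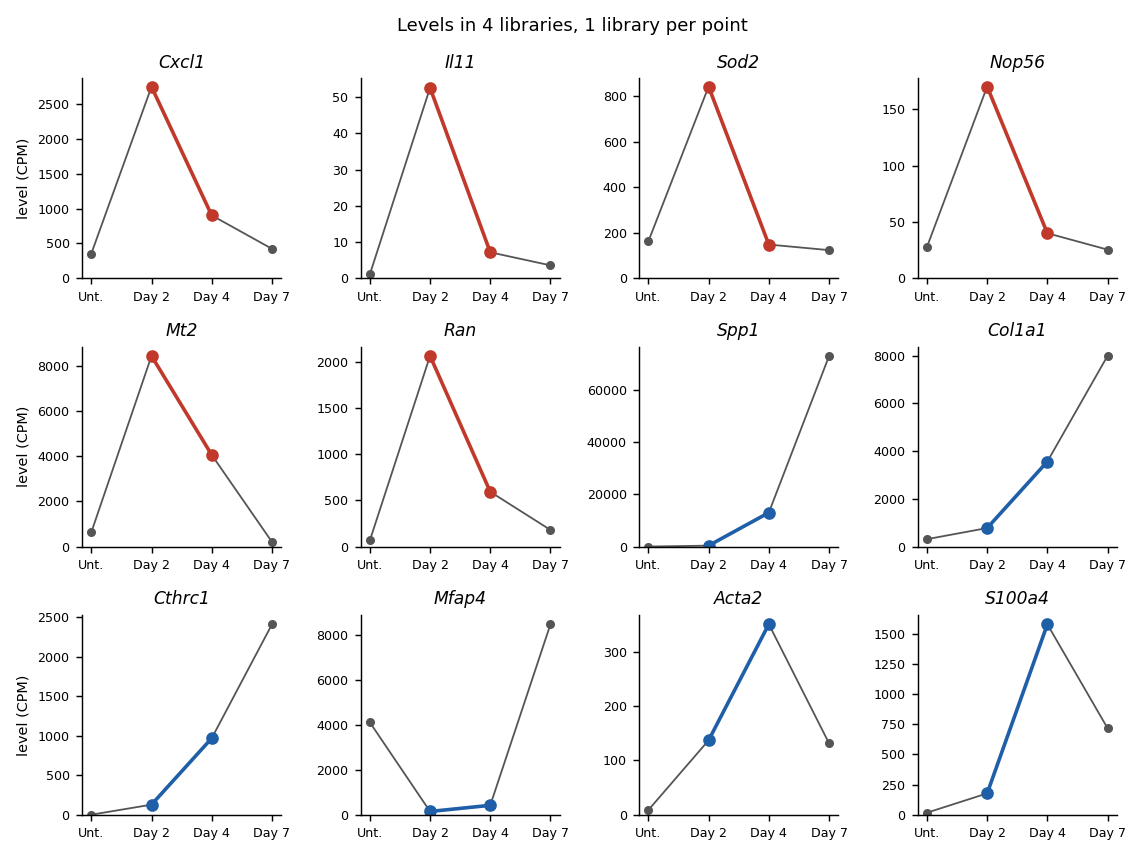
Level in CPM, from 0 on each y axis, of 12 genes in the Untreated, Day 2, Day 4 and Day 7 libraries, 1 library per point; the step from Day 2 to Day 4 is coloured. Cxcl1, Il11, Sod2, Nop56, Mt2 and Ran are highest at Day 2 among the 4 libraries, Spp1, Col1a1, Cthrc1 and Mfap4 at Day 7, and Acta2 and S100a4 at Day 4.

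Resident fibroblast identity genes did not go one way. Of 23 alveolar fibroblast genes in the table, 14 passed, 4 at least 2-fold higher and 1 lower, with a median of 0.24. Mfap4 stood at 148 CPM at Day 2 and 422 at Day 4, far under its 4106 CPM in Untreated, and Lpl, Spon1 and Figf were the other higher members. Inmt, a methyltransferase of lung fibroblasts, stood at 40.2 and 13.0 CPM, after 4343 in Untreated. Of 21 adventitial fibroblast genes 11 passed, 4 at least 2-fold higher and 3 lower, with a median of -0.40. Igfbp6 (108 and 264 CPM), Mfap5, Igfbp4 and Serpinf1 were higher, and Has1, Ccl11 and Gsn (2260 and 884 CPM) lower. Igfbp4 is one of 75 measured genes whose predicted tag is shared with 10 or more others.

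Collagen, decorin and lumican transcripts were present in both libraries. The sort was on a collagen reporter, so the collagens are no separate check of the fibroblast label. Dcn stood at 2443 CPM at Day 2 and 1039 at Day 4, and Lum at 28.8 and 43.2. Of 8 fibroblast markers 6 passed; Pdgfra, the PDGF receptor alpha chain, stood at 38.2 CPM at Day 2 and 12.4 at Day 4, 2.43-fold lower (1.80 to 3.32). Pdgfrb stood at 1.46 and 1.57 CPM, and Thy1 at 0.648 and 13.5 CPM, both below the filter. Most markers of other cells were listed at or near 0. Genes that every cell uses are too, among them Cox7a2, at 0 in both libraries, and the ribosomal protein genes Rpl6 and Rps15a, each at 0.162 CPM at Day 2 and 0 at Day 4, so a listed 0 may be a tag that was not assigned to its gene. The 16 macrophage and monocyte markers summed to 7.45 CPM at Day 2 and 6.97 at Day 4, of which Lyz1 gave 4.37 and 5.17, with Ptprc, Cd68 and Marco at 0. The 4 neutrophil markers summed to 0.648 and 0.225 CPM, the 8 lymphocyte markers to 0.972 and 0, and the 7 endothelial markers to 0.324 and 0.225.

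The 10 epithelial markers summed to 41.1 and 24.1 CPM, mostly Krt8 (24.9 and 16.4), with Cdh1 at 0 and Epcam at 0.162 and 0.225. The 5 mesothelial markers summed to 2.75 and 5.17 CPM, and the 6 pericyte and smooth muscle markers to 54.2 and 71.0, mostly Des. Spp1, which macrophages also make, stood at 12975 CPM at Day 4 in a library whose macrophage markers, Lyz1 apart, were each listed at 0.674 CPM or less, with the limit on listed zeros given above.

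At the filter itself, the genes just inside were Plbd2 (11.0 and 8.99 CPM), Scd2 (11.5 and 8.54) and Fam173a (9.72 and 10.3). Just outside were Fam136a (15.7 and 4.27 CPM), Rnf113a2 (8.74 and 11.2) and Dcaf8 (12.8 and 7.19). Apart from the genes above, the most abundant transcripts of both libraries were Zyg11b (36446 and 50186 CPM), whose value is uncertain, Mgp, a matrix calcification inhibitor (25094 and 48560), Rps25 (30075 and 23747) and Fth1, the ferritin heavy chain (33593 and 15450). The predicted tag of Zyg11b occurred in no other gene, but its level lay close to that of the shared-tag gene Luc7l2 in most libraries. Zyg11b and Luc7l2 stood at 3755 and 1547 CPM in Untreated, 5969 and 5026 at Day 7, 50907 and 46112 in the Acta2 low sort and 36088 and 31665 in the Acta2 high sort. Whether they count the same tags was not tested.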

How the data were processed

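Gene expression of sorted donor fibroblasts was measured by 3′ SAGE on PCR-amplified cDNA, per the labels' protocols. The authors deposited CPM values per gene symbol. BWA 0.6.2 and the build mm9 are credited to the submitters' processing notes; for the anchoring enzyme, strand and tag-to-gene rule, the entry is: not given in the sources used here. All CPM values were whole multiples of 1 tag within 0.001 (100%), so tag counts were recovered. The main measure was the difference of log2(CPM + 1), Day 4 minus Day 2, over genes with a mean of at least 10 CPM, minus their median; 2-fold and 4-fold are size rules, not tests. Intervals are exact conditional (Clopper-Pearson) 95% counting intervals without molecular identifiers, and 0 tags were given a floor of 3 tags per library. The script was tested on simulated data. Members and the 34 lists, with 8 marker lists, were chosen with earlier results of these data known. Named genes were the 12 furthest each way with a mean of at least 50 CPM (predicted symbols and shared-tag genes left out), the most abundant and up to 4 furthest members each way per list, the 10 most abundant per library, and pathway-defining genes; other members are named after their values were seen. In 25 rows a symbol turned into a date was restored from the row's transcript title. Promoter windows (RefSeq, GRCm38.p6) matched 3034 of the 4259 genes by symbol, and 1225 had none. A GENCODE transcript was found for 20259 rows, 83.0% of the table. Alternatives were other pseudocounts, filters and centring, removal of shared-tag genes, and rules on the counting interval or a binomial test of tags. Work was done in Python 3.11.15 with numpy 2.4.6, pandas 2.3.3, scipy 1.17.1 and matplotlib 3.10.9.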

Additional observations from a re-analysis of the deposited data

How the results depend on the processing

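No paired analysis was possible because each group is 1 library, and for the same reason no replicate could be left out. Of genes at least 2-fold higher, 215 became 517 with no filter on low values, 95 at a mean of at least 50 CPM, 91 without centring and 110 where the whole counting interval had to lie past 2-fold. With no filter the centre also moved, and 150 of the 215 were among the 517. Of genes at least 2-fold lower, 113 became 70 with a pseudocount of 5 CPM, 451 with no filter, 36 at 50 CPM, 418 without centring and 42 under the interval rule. The 21 genes at least 4-fold higher became 42, 12 and 13 with no filter, at 50 CPM and without centring. Of the 21, 16 were among the 42. The 5 at least 4-fold lower became 3 with a pseudocount of 5 CPM, 15 with no filter, 2 at 50 CPM, 11 without centring and 3 under the interval rule. They became 4 without shared-tag genes, of which Sod2 is one. A trimmed mean in place of the median gave 213 and 117, removal of shared-tag genes 209 and 112, and a binomial test of the tags added to the size rule 215 and 113. List medians changed sign without centring for polyamine genes (-0.11), integrins (-0.0354), TGF-beta (-0.0885), alveolar identity (-0.11), immediate early genes (-0.32), cell cycle inhibitors (-0.31) and oxidative phosphorylation (-0.30). With no filter they did so for TGF-beta (-0.0153), alveolar (-0.0679) and adventitial identity (0.0847), immediate early genes (-0.17) and oxidative phosphorylation (-0.0865). At 50 CPM they did so for alveolar (-0.0545) and adventitial identity (0.43), cell cycle inhibitors (-0.0176) and the secretory pathway (0.0528). Of these, 4 had reported medians close to 0: 0.03 (immediate early), 0.04 (inhibitors), 0.05 (oxidative phosphorylation) and -0.01 (secretory). The changes without centring follow from the shift of the median gene by -0.348 log2. With no filter the median gene lay at -0.217 log2, so each gene's relative value was lower than at the main filter. List members added or removed by a filter also alter the medians, and these parts were not separated. The summed CXC chemokine level at Day 4 was 0.455 of that at Day 2 relative to the median gene, and 0.551 without Cxcl1; for CC chemokines these were 0.687 and, without Ccl7, 0.743. Depth limits members near 10 CPM, where counting intervals are wide, and biological spread between samples is unknown.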

Other observations

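Families picked by symbol after their values were seen add to the step from Day 2 to Day 4, and they carry no test. All 6 measured S100 calcium-binding genes were above the median gene, 4 at least 2-fold, with a median of 1.34: S100a4 stood at 177 CPM at Day 2 and 1576 at Day 4, and S100a6 at 1078 and 2127. The actin-binding peptides Tmsb4x (17942 and 61272 CPM) and Tmsb10 (9602 and 23035) were 4.35-fold and 3.05-fold higher, while Pfn1, profilin, stood at 14311 and 11380 CPM. Of 7 annexins 1 was at least 2-fold higher, Anxa1, an anti-inflammatory mediator, at 402 and 1052 CPM. Of 4 measured IGF-binding proteins 3 were at least 2-fold higher, among them Igfbp7 at 1274 and 3228 CPM; Igfbp3 stood at 645 and 509.

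Families of folding, transport and turnover genes had medians below the median gene, most of them by little. All 8 measured subunits of the TRiC chaperonin, which folds actin and tubulin, were below the median gene and within 2-fold, with a median of -0.66, and their summed level was 1773 CPM at Day 2 and 857 at Day 4. Of 16 nuclear transport genes 2 were at least 2-fold lower, Ran and Xpo5 (20.7 and 5.40 CPM), and 5 lay above the median gene, with a median of -0.24. Of 36 proteasome genes 30 were below the median gene and none was past 2-fold (median -0.29). Mitochondrial ribosomal proteins (55 measured, 1 at least 2-fold lower, 13 above the median gene, median -0.18) were closer to it. So were initiation factors (32 measured, none past 2-fold, 8 above the median gene, median -0.22). The ferritin chains differed, Fth1 at 33593 and 15450 CPM and Ftl1 at 15050 and 13489. Of 6 histone genes 2 were at least 2-fold higher, Hist1h2al (25.4 and 44.1 CPM) and the linker histone gene Hist1h1c (62.3 and 110.6 CPM), with a median of 0.36.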
